A study of Bos taurus with 9 samples.

Results

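The 39 HOX genes of clusters A to D were examined in RNA sequencing libraries of bovine endometrial cells. They were chosen by name, as every gene symbol of the count table made of HOX, a letter from A to D and digits only, with no antisense genes. The table listed 39 such genes among 30641 symbols. Of these, 31 had enough counts to be tested, among 14874 genes tested in all.

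The cells, labelled as bovine endometrial epithelial cells, were grown in an endometrial cell growth medium, and the labels name neither a donor nor a passage. In the DPPA3 mRNA group, 500 ng of in vitro transcribed DPPA3 mRNA was delivered with jetMESSENGER, a transfection reagent, 24 hours after seeding. The reagent alone group was given jetMESSENGER with no RNA, also 24 hours after seeding, and the untreated control group was given neither RNA nor jetMESSENGER. Each group had 3 libraries. With no control mRNA in the design, effects of the DPPA3 sequence and of transfected RNA as such cannot be told apart. The labels do not say whether replicates came from separate cultures or animals, so each p-value reflects the spread among these libraries alone, and that spread may be technical.

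HOX genes encode homeodomain transcription factors, and in mammals they lie in 4 clusters in which the order of the genes follows their order of use along the body axis. Genes of low number sit at the 3′ end of a cluster and act toward the head, and genes of high number sit at the 5′ end and act toward the tail. Genes of equal number in different clusters are paralogues. HOX proteins bind DNA with TALE cofactors of the PBX and MEIS families, retinoic acid induces the 3′ genes, and Polycomb complexes keep genes silent outside their domain. In the female tract of mouse and human, HOXA10 and HOXA11 act in the uterus and HOXA13 further toward the vagina, and Hoxa10 is required for implantation in mice.

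The total counts ranged from 11070923 to 13258036 in the DPPA3 mRNA group, from 3890134 to 12092771 in the reagent alone group and from 7258348 to 10130619 in the untreated group. The smallest library was reagent alone replicate 1, and the largest was DPPA3 mRNA replicate 1. Untreated control replicate 1 stood apart, with a scaling factor of 0.856 against 1.001 to 1.051 in the other 8 libraries. DPPA3 took 0.953% to 1.93% of the counts in the transfected libraries, 0 counts in each reagent alone library and 0 to 2 counts in the untreated libraries. Levels are given as CPM, the share of a library's counts scaled to a common library size. A count of 0 allows up to 3 counts, or 0.226 to 0.747 CPM depending on the library, which covers counting error only.

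Markers of cell type agreed in part with the label. The keratins KRT7, KRT8, KRT18 and KRT19 and the cadherin CDH1 were present, and KRT8 stood at 4019 to 4512 CPM in DPPA3 mRNA libraries, 3802 to 4329 CPM in reagent alone libraries and 4033 to 4995 CPM in untreated libraries. GRHL2, an epithelial transcription factor, had 0 counts in all libraries, and EPCAM, CLDN3, CLDN7 and ESRP1 had between 4 and 37 counts over all 9. The 12 epithelial markers summed to 8792 to 9791 CPM in DPPA3 mRNA libraries, 8587 to 8943 CPM in reagent alone libraries and 8928 to 11050 CPM in untreated libraries. The 11 stromal markers, COL1A1, COL1A2 and COL3A1 among them, summed to 29610 to 34870 CPM in DPPA3 mRNA libraries, 28040 to 36170 CPM in reagent alone libraries and 30550 to 46660 CPM in untreated libraries. Within the stromal list THY1 had 58 counts over all 9 libraries, against 135205 for VIM. The libraries thus held keratins and collagens together, with several defining epithelial genes at or near 0 and the stromal gene THY1 low. The 4 smooth muscle markers summed to 425 to 810.0 CPM in DPPA3 mRNA libraries, 540 to 912 CPM in reagent alone libraries and 439 to 826 CPM in untreated libraries. The endothelial sums lay between 6.41 and 12.2 CPM, the immune sums between 4.03 and 8.44 CPM, and the leukocyte gene PTPRC was at 0. Every HOX level here is a mean over these cells, in which fewer cells of a type and less RNA per cell cannot be told apart.

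By the genes tested and by summed CPM, the HOX genes formed a profile centred on the middle of the clusters. All 15 genes of paralogue groups 4 to 8 were tested, against 6 of 8 genes in groups 1 to 3 and 10 of 16 genes in groups 9 to 13. The tested genes of groups 4 to 8 summed to 1083 ± 77.9 CPM in DPPA3 mRNA libraries, 1233 ± 278 CPM in reagent alone libraries and 1416 ± 203 CPM in untreated libraries (SD, n = 3 each). Groups 9 to 13 summed to 199 ± 23.2 CPM in DPPA3 mRNA libraries, 198 ± 6.83 CPM in reagent alone libraries and 235 ± 26.2 CPM in untreated libraries. Groups 1 to 3 summed to 87.1 ± 8.24 CPM in DPPA3 mRNA libraries, 86.3 ± 13.9 CPM in reagent alone libraries and 108 ± 33.2 CPM in untreated libraries. These sums are shares of reads and are not corrected for gene length.

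The 8 genes not tested belonged to paralogue groups 1 and 11 to 13, toward the ends of the clusters. HOXB1 and HOXD1 at the 3′ end and HOXB13, HOXC11 and HOXD12 at the 5′ end had 1 to 3 counts over all 9 libraries. HOXA13, the gene of the lower tract, had 15, 5 and 0 counts in DPPA3 mRNA replicates 1 to 3, against 1, 8 and 12 counts in reagent alone libraries and 0, 8 and 3 counts in untreated cells. HOXC12 had 10 counts in all, 8 of them in reagent alone replicate 3. HOXD13 had 2, 3 and 3 counts in DPPA3 mRNA libraries, 0, 0 and 9 counts in reagent alone libraries and 4, 8 and 5 counts in untreated cells. HOXA13 and HOXD13 each exceeded 3 counts in several libraries, HOXD13 in every untreated one, and neither had enough counts to be tested.

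**Figure D1:**
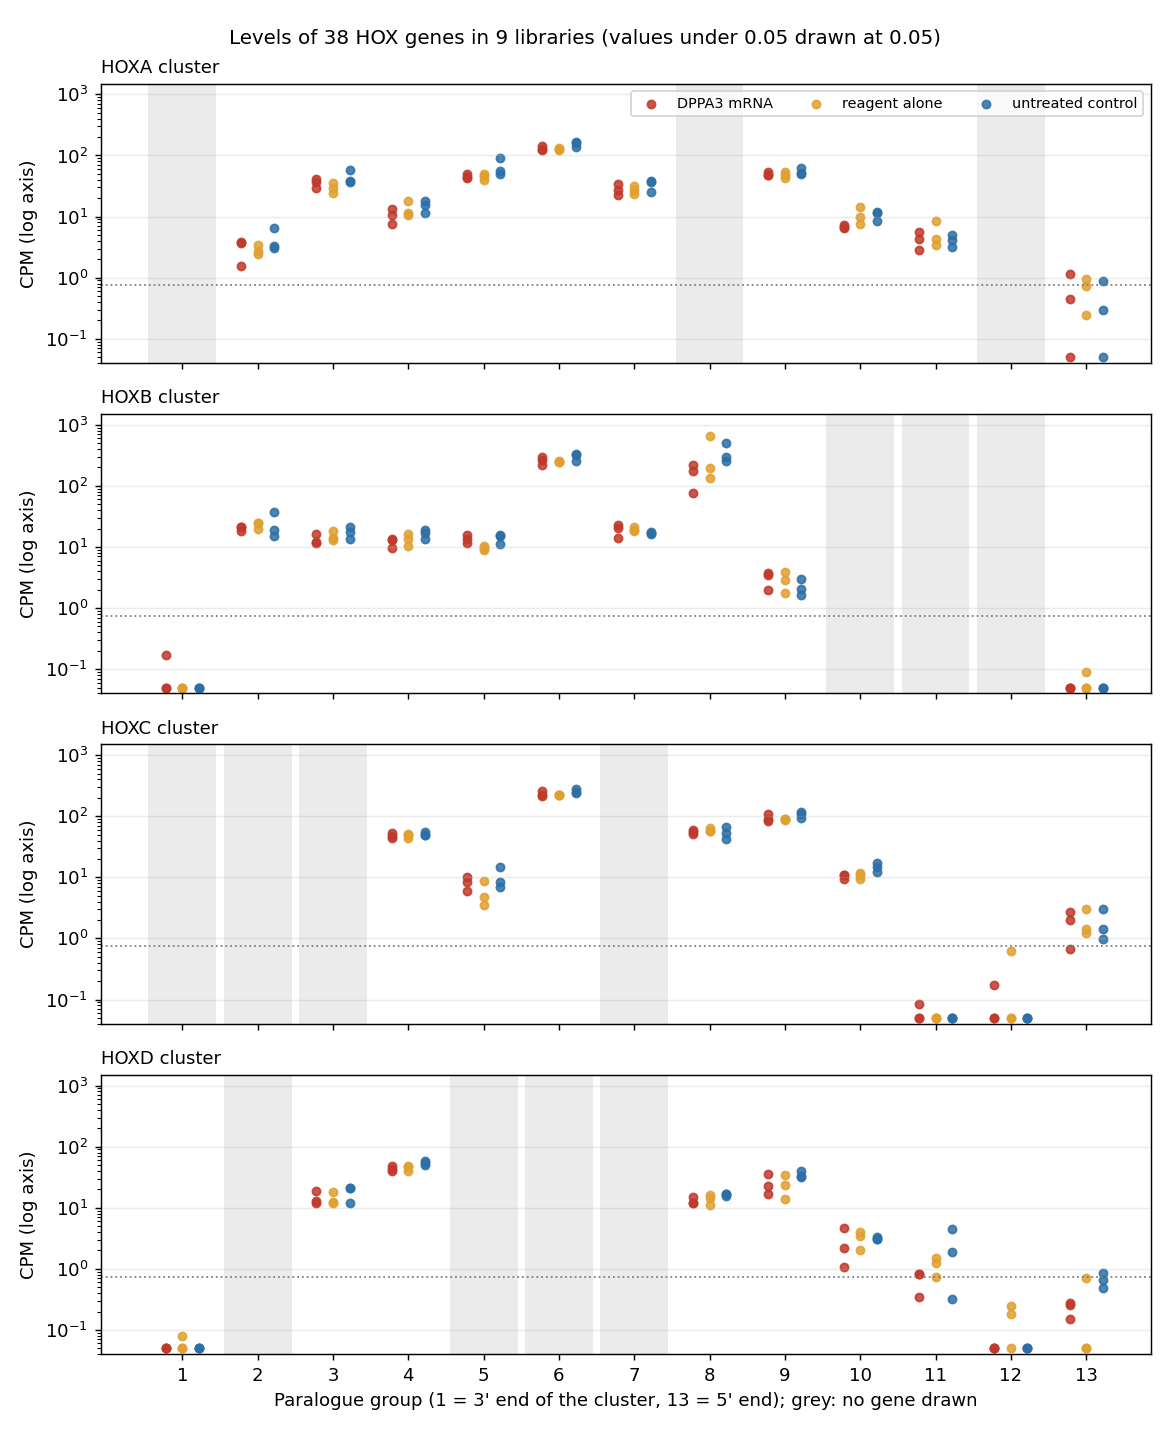
Level of HOX genes in CPM (log axis) by cluster and paralogue group, with 1 point for each library and the highest floor, 0.747 CPM, as a dotted line. Groups 4 to 8 hold the highest points in every cluster by CPM, which is not corrected for gene length. Per kilobase of span, HOXD9 led cluster D in untreated cells, at 15.7 against 5.42 for HOXD8. The points nearest group 13 are at or near the floor, with HOXC13 reaching 3.05 CPM.

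Levels of different genes were compared per kilobase of gene span, which counts introns and so understates genes with long introns. In untreated cells the order was led by HOXB6, at 41.1 CPM per kilobase with a range of 34.7 to 44.6 over the 3 libraries. Next came HOXB8 at 26.2 (19.1 to 37.2), HOXA6 at 22.7 (20.2 to 24.5), HOXC6 at 19.3 (18.4 to 20.7) and HOXA9 at 17.2 (15.6 to 19.7) CPM per kilobase. HOXD9 at 15.7, HOXC8 at 13.4 and HOXC9 at 13.3 CPM per kilobase followed. The ranges of neighbours in this order overlapped at every step, whereas the range of HOXB6 lay above those of HOXA6 and the genes after it. Paralogue group 6 is present in clusters A, B and C, and all 3 of its genes were among the first 5. Without correction for length, HOXB8 led in untreated cells and 4 of these 5 genes stayed among the first 5 by CPM.

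HOXB6, which acts in trunk patterning and blood cell development in mice, varied little between libraries. It measured 268, 223 and 298 CPM in DPPA3 mRNA libraries, 244, 251 and 246 CPM in reagent alone libraries and 325, 257 and 330.3 CPM in untreated libraries. HOXC6 measured 224, 219 and 256 CPM in DPPA3 mRNA libraries, 224, 225 and 222 CPM in reagent alone libraries and 248, 243 and 275 CPM in untreated libraries. HOXA6 measured 143, 124 and 130 CPM in DPPA3 mRNA libraries, against 124, 129 and 131 CPM in reagent alone libraries and 169, 140 and 162 CPM in untreated libraries. For all 3 genes every reagent alone library lay below every untreated library, and the DPPA3 mRNA libraries overlapped both groups. Within each replicate number, the DPPA3 mRNA library lay below the untreated one for all 3 genes. The labels state no such pairs, and the share of all genes with this pattern was not computed. The highest library stood only 1.48, 1.26 and 1.37 times above the lowest for HOXB6, HOXC6 and HOXA6.

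In cluster D the highest tested level was that of HOXD4 by CPM and that of HOXD9 per kilobase. HOXD4, a gene of the hindbrain and neck in mice, measured 40.0, 43.2 and 47.7 CPM in DPPA3 mRNA libraries, 40.1, 49.0 and 47.0 CPM in reagent alone libraries and 49.5, 53.7 and 58.9 CPM in untreated libraries. HOXD9 measured 17.0, 22.6 and 36.2 CPM in DPPA3 mRNA libraries, 13.7, 23.3 and 33.9 CPM in reagent alone libraries and 32.7, 31.3 and 40.0 CPM in untreated libraries. The libraries numbered 3 were the highest of their group for HOXD9 in all 3 groups.

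The highest-numbered tested gene of each cluster had low levels, whereas HOXA9, HOXC9 and HOXD9 were among the 8 highest per kilobase. HOXA11, required for uterine development in mice, measured 5.58, 2.89 and 4.24 CPM in DPPA3 mRNA libraries, 8.47, 4.22 and 3.47 CPM in reagent alone libraries and 4.19, 3.14 and 5.09 CPM in untreated libraries. HOXB9 measured 3.77, 3.52 and 1.95 CPM in DPPA3 mRNA libraries, 1.74, 3.86 and 2.92 CPM in reagent alone libraries and 1.61, 2.06 and 3.03 CPM in untreated libraries. HOXC13, known for its part in hair and nail in mouse and human, measured 0.679, 2.71 and 2.04 CPM in DPPA3 mRNA libraries, 1.25, 3.05 and 1.42 CPM in reagent alone libraries and 0.967, 1.41 and 3.03 CPM in untreated libraries. The groups overlapped for each of these 3 genes. HOXD11, a limb and kidney gene in mice, measured 0.829, 0.813 and 0.340 CPM in DPPA3 mRNA libraries, 0.747, 1.26 and 1.497 CPM in reagent alone libraries and 4.51, 0.325 and 1.86 CPM in untreated libraries, so its untreated mean rested on replicate 1.

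Reads of neighbouring HOX genes may be hard to assign. In a RefSeq table of the assembly ARS-UCD2.0, the spans of 16 HOX genes overlapped another gene, and those of 14 overlapped another HOX gene. HOXB3 overlapped HOXB4, HOXB5 and HOXB6, HOXA3 overlapped HOXA4 and HOXA5, and HOXB8 overlapped HOXB9. The use of strand in counting is not stated in the labels or the file, and values of overlapping genes are uncertain. The noncoding gene LOC112442652, which overlaps HOXB8 and HOXB9, had 116 counts over all libraries against 20720 for HOXB8.

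HOXB8 stood apart from its neighbours by its spread. HOXB8, which patterns the spinal cord and acts in blood cell progenitors in mice, measured 76.2, 222 and 175 CPM in DPPA3 mRNA libraries, 667, 199 and 135 CPM in reagent alone libraries and 503, 258 and 302 CPM in untreated libraries. The DPPA3 mRNA libraries all lay below the untreated ones and overlapped the reagent alone ones. Its highest library was 8.76 times its lowest, and 7 of the 1903 genes with a mean of at least 100 CPM (0.368%) spanned at least that range, HOXB8 included. The median of that ratio was 1.60 over those 1903 genes and 1.42 over the 4 HOX genes among them.

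Its level moved with library size. The lowest level was in the largest library, DPPA3 mRNA replicate 1, and the highest in the smallest, reagent alone replicate 1. As raw counts HOXB8 had 1010, 2452 and 2064 in DPPA3 mRNA libraries, 2680, 2214 and 1709 with reagent alone and 3122, 2383 and 3086 in untreated cells. Within both the DPPA3 mRNA and the reagent alone groups the larger library had the lower level, and in untreated cells replicate 1 was both the smallest and the highest. Across the 9 libraries log2 CPM correlated with log2 total count at Pearson r = -0.88 (exact permutation p 6.61e-05, two-sided, Benjamini-Hochberg adjusted p 0.15 over 14874 genes) and Spearman rho = -0.97 (exact permutation p 1.65e-04, adjusted p 0.52). Over all genes 0 passed this adjustment for either coefficient. For rho no single gene could have passed alone, because 9 libraries give too few permutations for 14874 genes. Leaving out the 2 libraries farthest from the median total, reagent alone replicate 1 and untreated control replicate 1, gave r = -0.88. CPM has the total as its denominator, which the axes share. Every DPPA3 mRNA library was larger than every untreated library, and the permutations did not keep groups apart. Library size and group thus cannot be fully told apart in these p-values. Of the 14874 genes tested, 2 had a rho at or below that of HOXB8 (0.0134%) and 28 an r at or below, HOXB8 included in both. Among the other HOX genes rho ranged from -0.75 for HOXA10 to 0.58 for HOXB9.

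**Figure D2:**
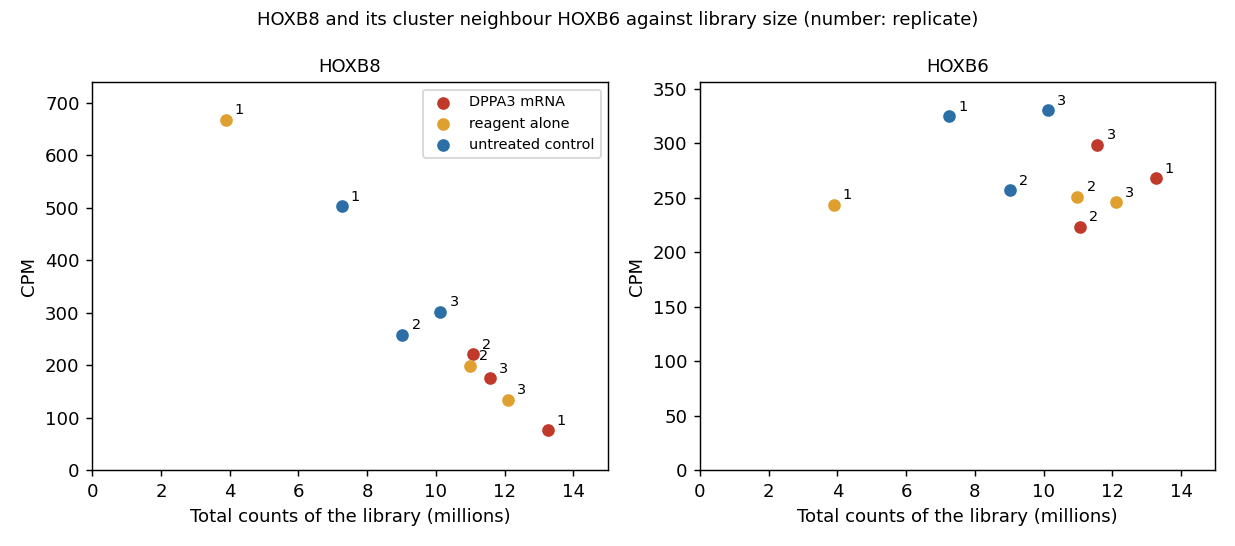
CPM of HOXB8 and of its cluster neighbour HOXB6 against the total count of each library, with 1 point for each of 9 libraries. HOXB8 runs from 667 CPM in the smallest library to 76.2 CPM in the largest, while HOXB6 stays between 223 and 330.3 CPM.

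Other genes varied with HOXB8, and none of them was a HOX gene. Across the 9 libraries 23 of 14873 genes had a correlation with HOXB8 of at least 0.9 in log2 CPM, against 0 of 30 HOX genes, where the highest was 0.72 for HOXC4. The points share their library totals. RBFOX1, a neuronal splicing factor, had the highest value, 0.98, and KIF1A, a motor protein of axonal transport, had 0.96. These genes and NR2F2 were named after their values were seen. NR2F2, a nuclear receptor of the uterine stroma in mice, had 0.95 and measured 179, 287 and 393 CPM in DPPA3 mRNA libraries, 1433, 285 and 228 CPM in reagent alone libraries and 1126, 445 and 468 CPM in untreated libraries. HOXB6, HOXB7 and HOXB9, which lie beside HOXB8 in the cluster, did not share this range.

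DPPA3 mRNA was set against reagent alone to measure the mRNA apart from its carrier. No HOX gene passed the threshold of an adjusted p under 0.05, against 1 of 14874 genes tested (0.00672%), which was DPPA3. With the replicate number as a block, 0 HOX genes and 2 of all genes were called. The median log2 fold change of the 31 HOX genes was -0.03, against 0.0027 over all genes tested, and 18 of the 31 (58.1%) were below 0, against 49.6% of all genes. In 2 HOX genes every DPPA3 mRNA library lay below every reagent alone library, where 3.99% of all genes did so, and in 1 HOX gene every DPPA3 mRNA library lay above, where 4.91% of all genes did so. An unadjusted p under 0.05 was found for 1 HOX gene, which was lower, against 1.67% of all genes in either direction and 0.397% lower.

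HOXA10, a regulator of endometrial receptivity in mouse and human, was among the HOX genes with the 5 smallest p in this comparison. It measured 6.71, 6.41 and 7.39 CPM in DPPA3 mRNA libraries, against 14.4, 7.55 and 10 CPM in reagent alone libraries and 11.3, 12.0 and 8.41 CPM in untreated libraries. The DPPA3 mRNA libraries were the 3 lowest of the 9. The log2 fold change over reagent alone was -0.61 (SE 0.29, 95% interval -1.24 to 0.011), with an adjusted p of 0.9998 by edgeR's quasi-likelihood test, and it was -0.36 without reagent alone replicate 1. For HOXA10 the correlation with library size had r = -0.81 (exact permutation p 0.0032, adjusted p 0.50 over all genes). Its rho was -0.75 (exact permutation p 0.025, adjusted p of 1), so neither coefficient passed the adjustment. Without reagent alone replicate 1 and untreated control replicate 1, r was -0.62. Within no group did the level of HOXA10 fall at every step of library size. Library size went partly with group, and a part of library size in this difference was not tested. With log2 total count as a covariate, which can also take up part of a group difference, the log2 fold change of HOXA10 was -0.35.

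HOXB8 had a log2 fold change over reagent alone of -1.08 (SE 0.51, 95% interval -2.17 to 0.023, adjusted p 0.9998). It was -0.082 without reagent alone replicate 1, the smallest library. With log2 total count as a covariate it was 0.017, and with limma voom -0.63. With no filter on low counts HOXB8 passed the threshold and was lower over reagent alone (log2 fold change -1.057, adjusted p 0.0039). HOXB5, a gene of lung and gut patterning in mice, was the 1 HOX gene with every DPPA3 mRNA library above every reagent alone library. It measured 13.4, 16.0 and 11.5 CPM in DPPA3 mRNA libraries, 8.96, 9.70 and 10.4 CPM in reagent alone libraries and 14.99, 11.04 and 15.6 CPM in untreated libraries, so the DPPA3 mRNA libraries overlapped the untreated ones. Its log2 fold change over reagent alone was 0.48 (SE 0.24, adjusted p 0.9998). HOXC5 measured 5.96, 8.40 and 10.2 CPM in DPPA3 mRNA libraries, 4.73, 3.59 and 8.59 CPM in reagent alone libraries and 14.5, 7.04 and 8.51 CPM in untreated libraries (log2 fold change over reagent alone 0.51, SE 0.39, adjusted p 0.9998). That of HOXC5 was 0.32 without DPPA3 mRNA replicate 3, 0.25 without reagent alone replicate 2 and 1.001 without reagent alone replicate 3.

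**Figure D3:**
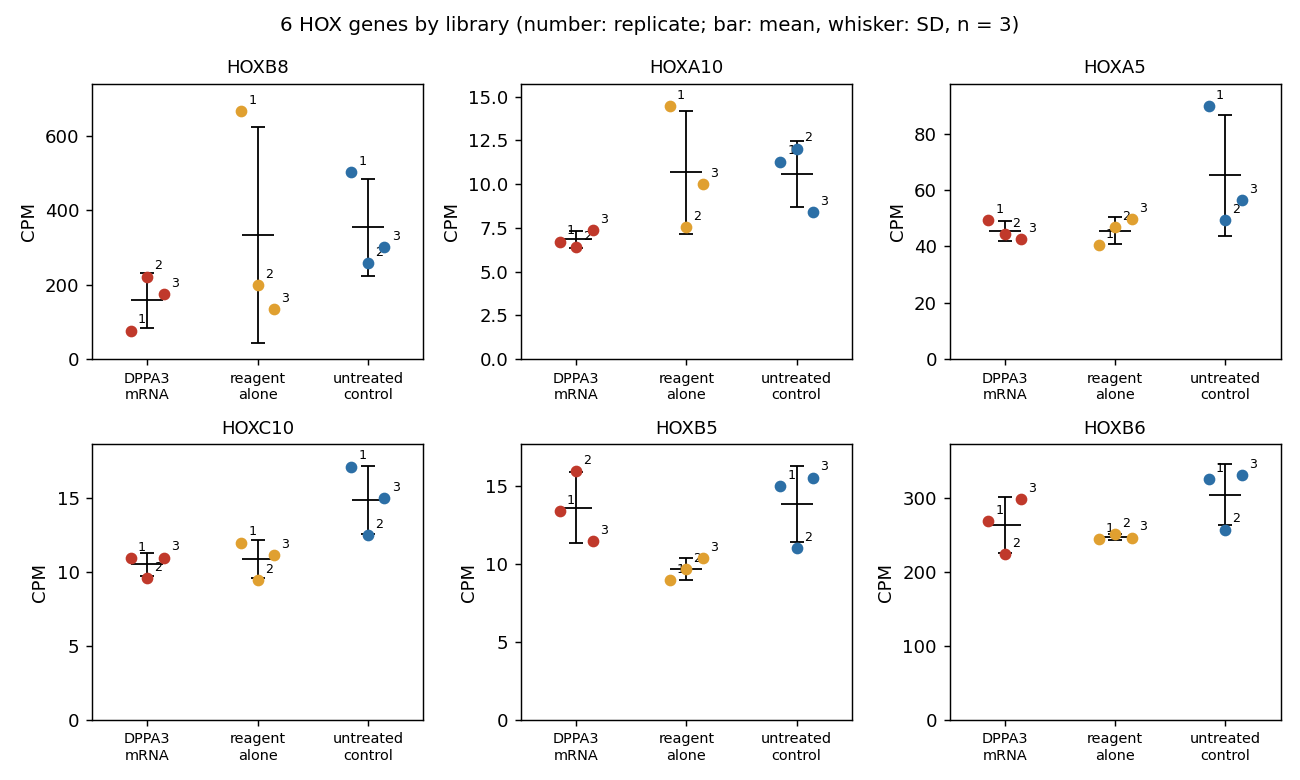
CPM of 6 HOX genes in each library, with DPPA3 mRNA on the left, reagent alone in the middle and untreated control on the right, bars at the mean and whiskers of 1 SD (n = 3). HOXA10 is lowest in the 3 DPPA3 mRNA libraries, HOXB8 ranges from 76.2 to 667 CPM, and HOXB6 stays between 223 and 330.3 CPM.

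The precision differed between genes. For 20 of the 31 HOX genes (64.5%) the 95% interval of the log2 fold change over reagent alone lay within 1 of 0, against 65.7% of all genes, so a 2-fold difference fell outside it. The narrowest belonged to the well counted genes, as with HOXC6 at -0.23 to 0.35 (log2 fold change 0.060, SE 0.13), HOXA6 at -0.25 to 0.35 (0.047, SE 0.14) and HOXB6 at -0.24 to 0.43 (0.093, SE 0.15). HOXA11 had an interval of -1.19 to 0.63, which includes a 2-fold difference.

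Against untreated control, DPPA3 mRNA cells differed by the reagent and the mRNA together. No HOX gene was called, against 2 of 14874 genes (0.0134%), and with the replicate block 0 HOX genes and 7 of all genes were called. The median log2 fold change of the HOX genes was -0.28, against 0.0017 over all genes, and 27 of the 31 (87.1%) were below 0, against 49.8% of all genes. Every DPPA3 mRNA library lay below every untreated library in 6 HOX genes (19.4%), against 3.86% of all genes, and above in 0, against 4.24%. These were HOXA5, HOXB8, HOXA10, HOXC10, HOXD4 and HOXD8. An unadjusted p under 0.05 was found for 3 HOX genes, all lower, against 3.91% of all genes in either direction and 1.82% lower. The 95% interval lay within 1 of 0 for 20 HOX genes (64.5%), against 60.5% of all genes.

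HOXA5, which acts in lung and neck patterning in mice, had the smallest p. It measured 49.3, 44.4 and 42.4 CPM in DPPA3 mRNA libraries and 89.8, 49.4 and 56.5 CPM in untreated libraries, with 40.3, 46.7 and 49.7 CPM in the reagent alone libraries. Untreated control replicate 1 was the highest of all 9 libraries. The log2 fold change over untreated control was -0.52 (SE 0.21, 95% interval -0.98 to -0.059, edgeR adjusted p 0.85), and -0.22 without untreated control replicate 1. HOXB8 had a log2 fold change of -1.17 (SE 0.51, adjusted p 0.85), -0.82 without untreated control replicate 1 and -0.54 with log2 total count as a covariate. With no filter on low counts it passed the threshold (log2 fold change -1.16, adjusted p 6.4e-04). HOXA10 had a log2 fold change of -0.62 (SE 0.29, 95% interval -1.25 to -0.0042, adjusted p 0.85), and -0.34 with limma voom.

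HOXC10, a gene of hindlimb motor neurons in mice, measured 10.9, 9.58 and 10.95 CPM in DPPA3 mRNA libraries, 12.0, 9.43 and 11.1 CPM in reagent alone libraries and 17.1, 12.5 and 14.96 CPM in untreated libraries. Both treated groups lay below the untreated one without overlap. Its log2 fold change with DPPA3 mRNA was -0.50 (SE 0.23, adjusted p 0.85), and with reagent alone -0.46 (SE 0.23, adjusted p 0.47). HOXD11 had a log2 fold change with DPPA3 mRNA of -1.70 (SE 0.81, adjusted p 0.85), and of -0.71 without untreated control replicate 1.

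Reagent alone was set against untreated control to measure the carrier itself. No HOX gene was called, against 0 of 14874 genes (0%), and 2 HOX genes had an unadjusted p under 0.05, both lower, against 1516 of all genes (10.2%) in either direction and 5.96% lower. The 95% interval lay within 1 of 0 for 19 HOX genes (61.3%), against 53.7% of all genes. DESeq2 called 2 of all genes and 0 HOX genes, and limma voom called 2 and 0. The median log2 fold change of the HOX genes was -0.24, against -0.0099 over all genes, and 24 of the 31 (77.4%) were below 0, against 50.8% of all genes. Every reagent alone library lay below every untreated library in 8 HOX genes (25.8%), against 7.21% of all genes, and above in 2, against 6.92%. The 8 were HOXA3, HOXA6, HOXB5, HOXB6, HOXC6, HOXC9, HOXC10 and HOXD4, and HOXB7 was among the 2.

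HOXA5 again had the smallest p (log2 fold change -0.51, SE 0.21, 95% interval -0.97 to -0.045, edgeR adjusted p 0.47), with -0.20 without untreated control replicate 1 and -0.29 with limma voom. HOXA3, which acts in thymus and parathyroid development in mice, measured 29.4, 35.9 and 24.4 CPM in reagent alone libraries and 57.2, 36.6 and 37.7 CPM in untreated libraries, with 41.2, 37.0 and 28.9 CPM with DPPA3 mRNA. Its log2 fold change was -0.55 (SE 0.23, adjusted p 0.47), -0.30 without untreated control replicate 1 and -0.36 with limma voom. The log2 fold changes of HOXA6 (-0.29, SE 0.14), HOXB5 (-0.51, SE 0.24) and HOXC5 (-0.79, SE 0.39) also had an adjusted p of 0.47. That of HOXC5 was -0.42 without untreated control replicate 1 and -1.28 without reagent alone replicate 3. HOXA10 and HOXB8 had log2 fold changes of -0.012 (SE 0.29) and -0.093 (SE 0.50), with 95% intervals of -0.63 to 0.61 and -1.18 to 0.99. Without untreated control replicate 1 they were 0.040 and 0.25, and without reagent alone replicate 1 they were -0.26 and -1.08.

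Both comparisons with untreated control share its 3 libraries, which ties their directions together. In 24 HOX genes the log2 fold change was below 0 in both, and the share of all genes that did so was not computed. Without untreated control replicate 1, the library with the lowest scaling factor, the HOX median was -0.18 with DPPA3 mRNA and -0.17 with reagent alone. The part of that library in the lower HOX levels was otherwise not tested. Summed over the 30 tested HOX genes other than HOXB8, the level was 1213, 1124 and 1298 CPM in DPPA3 mRNA libraries, 1158, 1208 and 1184 CPM in reagent alone libraries and 1492, 1242 and 1481 CPM in untreated libraries. Every reagent alone library lay below every untreated one on this sum, and DPPA3 mRNA replicate 3 lay above untreated control replicate 2. Within each of the 3 replicate numbers the DPPA3 mRNA library lay below the untreated one, though the labels state no such pairs. How often sums of other genes do so was not computed. Cluster A summed to 317 ± 22.5 CPM in DPPA3 mRNA libraries, 313 ± 7.37 CPM in reagent alone libraries and 388 ± 55.6 CPM in untreated libraries. Cluster C summed to 451 ± 44.1 CPM in DPPA3 mRNA libraries, 439 ± 6.46 CPM in reagent alone libraries and 493 ± 38.3 CPM in untreated libraries. Cluster D summed to 99.7 ± 20.04 CPM in DPPA3 mRNA libraries, 102 ± 15.6 CPM in reagent alone libraries and 129 ± 12.01 CPM in untreated libraries (SD, n = 3 each). Cluster B, which holds HOXB8, summed to 502 ± 58.3 CPM in DPPA3 mRNA libraries, 664 ± 290 CPM in reagent alone libraries and 749 ± 177 CPM in untreated libraries.

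**Figure D4:**
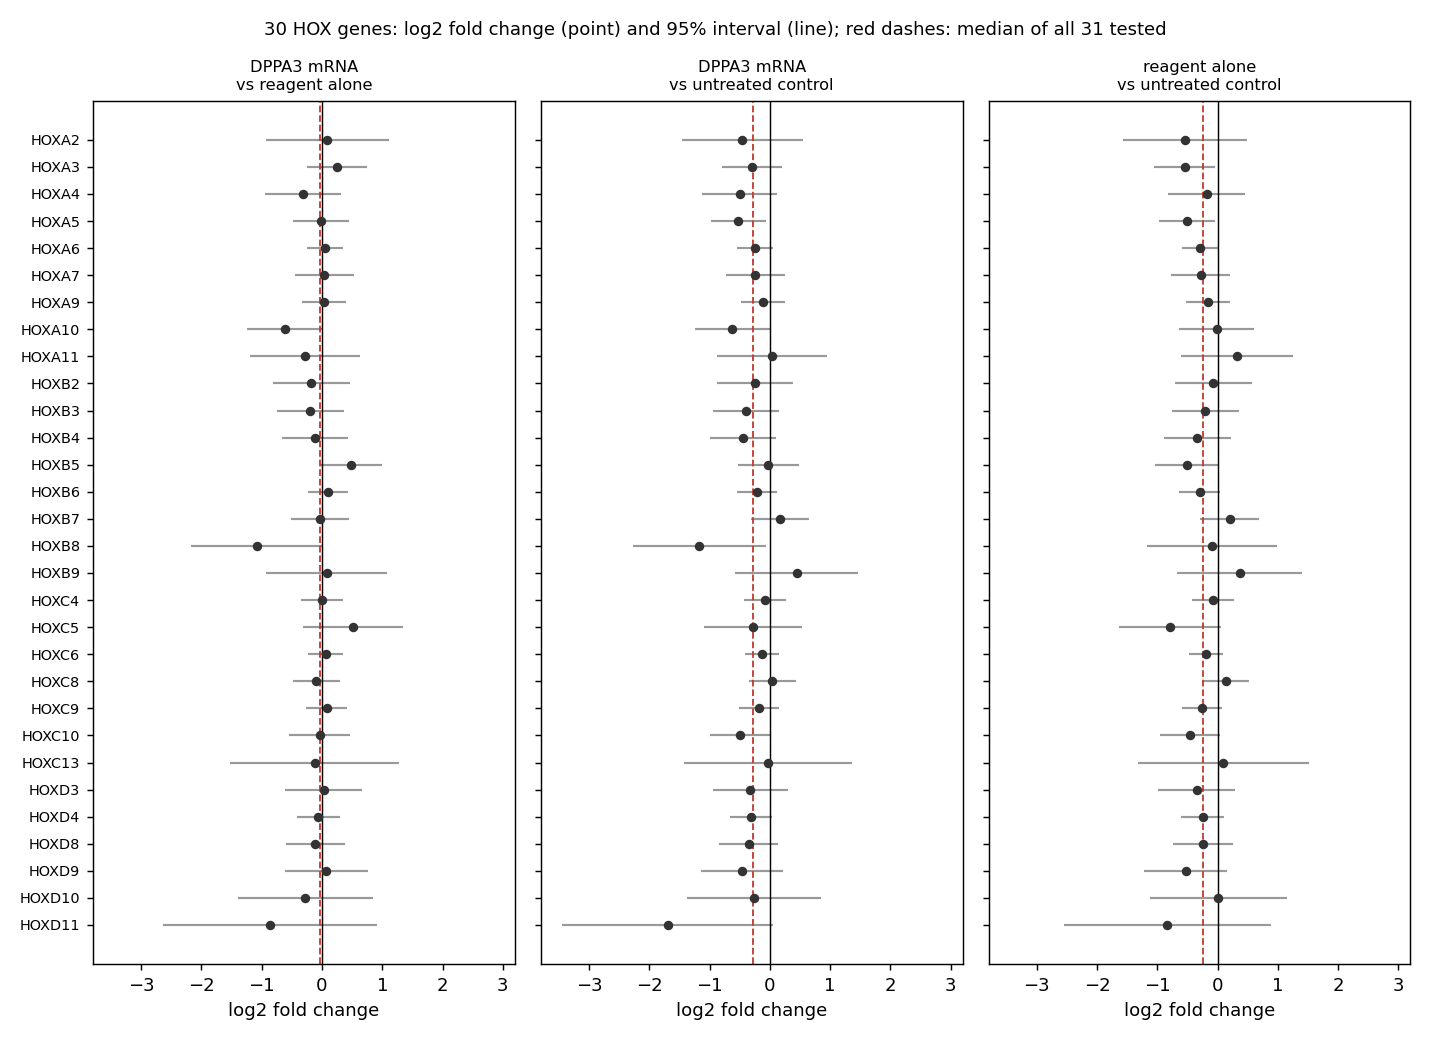
Log2 fold change of 30 HOX genes (point) with its 95% interval (line) in the 3 comparisons, and the median of all 31 tested HOX genes as a red dashed line. The median lies at -0.03 over reagent alone and at -0.28 and -0.24 in the comparisons with untreated control.

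Genes that work with the HOX proteins were also measured, and list medians are given for DPPA3 mRNA over reagent alone, DPPA3 mRNA over untreated control and reagent alone over untreated control, in that order. All 10 TALE cofactors were tested and 0 were called in any comparison. Their median log2 fold change was 0.022 over reagent alone, -0.0023 for DPPA3 mRNA over untreated control and -0.10 for reagent alone over untreated control. MEIS1 measured 91.7 ± 2.03 CPM in DPPA3 mRNA libraries, 98.9 ± 18.4 CPM in reagent alone libraries and 90.9 ± 9.496 CPM in untreated libraries (SD, n = 3 each). Of the 19 retinoid signalling genes 16 were tested and 0 called, with medians of -0.025, -0.099 and -0.079 in the 3 comparisons. CYP26B1, which degrades retinoic acid, measured 1.056, 0.632 and 0.849 CPM in DPPA3 mRNA libraries, 1.99, 2.70 and 1.42 CPM in reagent alone libraries and 1.45, 1.73 and 1.57 CPM in untreated libraries. It was lowest in the DPPA3 mRNA libraries (log2 fold change over reagent alone -1.25, SE 0.56, edgeR adjusted p of 1).

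All 26 Polycomb and trithorax genes were tested, 0 were called, and their medians were 0.044 over reagent alone and -0.14 and -0.20 over untreated control for DPPA3 mRNA and reagent alone. MEN1, a partner of the trithorax protein KMT2A, measured 63.0, 43.3 and 56.4 CPM in DPPA3 mRNA libraries, 50.3, 46.6 and 56.4 CPM in reagent alone libraries and 111, 59.4 and 70.5 CPM in untreated libraries, again with untreated control replicate 1 highest. Of the 12 genes reported downstream of HOXA10 or HOXA11 in endometrium, 10 were tested and 0 called, with medians of -0.056, -0.15 and -0.045. ITGB3, an integrin subunit that HOXA10 activates in human endometrial cells, measured 184 CPM in DPPA3 mRNA libraries, 207 CPM in reagent alone libraries and 204 CPM in untreated libraries on average. The stromal list had 0 of 11 members called, with medians of 0.043, -0.12 and -0.12, and the epithelial list 0 of 6 tested, with medians of 0.079, -0.088 and -0.16. The smooth muscle list had 0 of 4 called (medians -0.11, -0.18 and -0.076), the endothelial list 0 of 3 (-0.79, -0.34 and 0.44), the immune list 0 of 3 (-0.19, 0.027 and 0.098) and the uterine transcription factors 0 of 9 (-0.029, -0.28 and -0.27). The 10 other homeobox genes, among them EVX1 and EVX2 at the ends of clusters A and D, were too low to be tested. Of the 10 genes beside the clusters found in the table, 9 were tested, 0 were called, and their medians were -0.043 over reagent alone, 0.28 for DPPA3 mRNA and 0.35 for reagent alone over untreated control. SKAP2, beside cluster A, measured 74.3, 94.6 and 69.3 CPM in DPPA3 mRNA libraries, 77.9, 88.2 and 78.9 CPM in reagent alone libraries and 34.5, 75.5 and 57.2 CPM in untreated libraries, where untreated control replicate 1 was the lowest of the 9.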

How the data were processed

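RNA sequencing counts of 9 libraries were used. The authors deposited raw read counts per gene symbol. Per the submitters' processing notes, HISAT2, HTSeq, Trimmomatic and edgeR were involved. Build, annotation, versions and use of strand are not given in the sources that served here. All 39 HOX symbols matched the RefSeq table of ARS-UCD2.0 (24552 of 30641 symbols did, 80.1%), which gave spans and neighbours only.

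Low genes were removed with filterByExpr. The 3 groups were fitted together with TMM scaling and edgeR 4.0.16 (glmQLFit, glmQLFTest) in R 4.3.3, with Benjamini-Hochberg adjustment over 14874 genes and a threshold of 0.05. Standard errors are the log2 fold change over the square root of F. Depth correlations used log2(CPM + 0.5). This main fit was first tested, for each comparison, on simulated counts in which 200 genes differed. The alternative fits listed below were not tested in this way. Members and lists were chosen with earlier results of these data known. The HOX genes given library by library were HOXA10, HOXB8, the highest level and highest number of each cluster and the 5 smallest p per comparison, of which 1 gene is not reported here; from the related lists only some of those with the smallest p are given.

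Libraries of equal replicate number deviated from their group means together, with correlations of 0.162, 0.137 and 0.104 for DPPA3 mRNA and reagent alone, 0.38, 0.36 and 0.13 for DPPA3 mRNA and untreated control, and 0.17, 0.17 and 0.11 for reagent alone and untreated control. All lay over 0.1, while unlike numbers gave -0.35 to 0.078. Deviations within a group sum to 0, which ties these values together. The numbers were therefore read as possible pairs, which the labels do not state. The fit of the main results left them unpaired, and the replicate block took them in. Alternatives were DESeq2 1.42.0 size factors and Wald test, no filter, only 2 groups, a replicate block, DPPA3 left out, each library left out, thinning, limma 3.58.1 voom and, chosen after seeing the data, log2 total count as a covariate.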

Additional observations from a re-analysis of the deposited data

How the results depend on the processing

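No HOX gene was called under any alternative except HOXB8 with no filter on low counts, where 1 HOX gene was called over reagent alone (log2 fold change -1.057, adjusted p 0.0039) and 1 with DPPA3 mRNA over untreated control (-1.16, adjusted p 6.4e-04); the cause was not tested. Of 252 values of the HOX genes given with fold changes, 241 kept direction and side of the threshold and 9 changed sign. HOXB8 over reagent alone was 0.017 with log2 total count as a covariate, which was chosen after seeing the data. Such a covariate can take up part of a group difference, because totals went partly with group. For reagent alone over untreated control, HOXA10 was 0.088 with limma voom. Leaving out 1 library at a time moved it between -0.26 and 0.19, and HOXB8 between -1.08 and 0.29. The replicate block changed no HOX call, and gave HOX medians of -0.042, -0.29 and -0.25 in the 3 comparisons, with 2, 7 and 0 genes called among all.

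The genes called among all, for DPPA3 mRNA over reagent alone, DPPA3 mRNA over untreated control and reagent alone over untreated control, numbered 66, 69 and 18 when nothing was filtered, 9, 10 and 2 by DESeq2's Wald test, and 0, 0 and 0 after DPPA3 was removed; they were 1, 2 and 0 as reported. That removal took DPPA3 itself from the test, and the other gene called for DPPA3 mRNA over untreated control was not called either, for which the cause was not tested. Voom called 4 and 2 in the comparisons with untreated control, and the covariate 1 for DPPA3 mRNA over untreated control. With 1 library omitted at a time the calls ranged 1 to 20, 1 to 26 and 0 to 1, and the HOX medians -0.082 to -0.012, -0.32 to -0.18 and -0.30 to -0.17. The counts of 20 and 26 came without DPPA3 mRNA replicate 1, 2 calls over reagent alone without DPPA3 mRNA replicate 2, 1 call in DPPA3 mRNA over untreated control without any 1 of the untreated libraries, and 1 call in reagent alone over untreated control without reagent alone replicate 1. The summed HOX level was recomputed only with DESeq2 size factors, with all HOX genes and with 1 library left out, and kept within 1 SD. Leaving out 1 of 3 libraries cannot move a mean by 1 SD, so that part was fixed in advance. Without length, 4 of the 5 highest genes per kilobase remained. A ranking by coding length was not run. Depth limits HOX genes at the cluster ends, where 3 counts in reagent alone replicate 1 equal 0.747 CPM.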
